A study of Drosophila melanogaster with 6 samples.

Results

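Larvae homozygous for a fio mutation were compared with heterozygous larvae across all genes of the deposited table, in 2 mutant and 2 control libraries out of the 6 libraries sequenced. Per the labels, the mutant larvae were homozygous for fiomut and also carried one U6mut copy (U6mut/U6+), and the control larvae carried fiomut over cyo, the CyO balancer, a rearranged second chromosome that suppresses recombination. Both groups therefore carried at least one fiomut chromosome. The balancer was present only in the controls and U6mut only in the mutants, so an effect of either cannot be told apart from that of the second fiomut copy. The remaining 2 libraries, labelled fiomut ,[U6+]/fiomut with U6mut/U6+, served in the fit to estimate the spread and are not described. All larvae were grown at room temperature, and polyadenylated RNA of whole larvae was sequenced. The labels state no age, sex or number of larvae, nor whether libraries of one group share animals. A p-value here thus reflects spread among these libraries alone, and that spread may be technical. Of 17908 genes in the table, 11866 had enough counts to be tested.

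The series title names METTL16, a methyltransferase that places N6-methyladenosine (m6A) on the U6 spliceosomal RNA and, in mammals, on the mRNA of the enzyme that makes S-adenosylmethionine. A larva feeds and grows through 3 instars, and its midgut secretes proteases and glycosidases throughout feeding. Late in the third instar pulses of the steroid ecdysone stop feeding, turn on glue protein genes in the salivary glands, and later set off pupation. Epidermal cells lay down a new chitin-based cuticle at every moult, so glue, cuticle and ecdysone-response genes mark stage as well as tissue. In whole larvae, fewer cells of a type and less RNA per cell cannot be told apart.

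The total counts were 16380923 and 16153833 in mutant 1 and mutant 2, against 16234339 and 17847161 in control 1 and control 2. The gene for METTL16, CG7544 (2R, 15147860 to 15149709), had 52 and 25 counts in the mutant libraries, against 41 and 35 in the controls, so its few reads did not separate the groups and give no check of the genotype labels. The U6 genes had at most 4 counts in any of these libraries. The control libraries differed more from each other than the mutant libraries did. The levels of 852 tested genes (7.18%) lay more than 2-fold apart between the mutant libraries, against 1606 (13.5%) between the control libraries. Genes that rise late in larval life were among the most uneven in the controls. The ecdysone-inducible gene ImpE2 had 0.363 and 0.299 CPM (counts scaled to a library of 1000000) in the mutant libraries, against 2.48 in control 1 and 127 in control 2. The late-puff gene Eig71Ea had no counts in either mutant library, against 3 counts in control 1 and 1053 in control 2. Control 2 therefore stood apart for several stage-linked genes, and the results below are given with and without single libraries.

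In all, 2015 genes (17.0% of those tested) were called at an adjusted p under 0.05 by the edgeR quasi-likelihood test with Benjamini-Hochberg adjustment. Of these, 1180 (9.94%) were higher and 835 (7.04%) lower in mutant than in control larvae. The median log2 fold change over all tested genes was -0.02. At least 8-fold changes were seen in 298 genes that rose and 132 that fell. All 2015 called genes had no overlap between the mutant and control libraries, which was also true of 60.9% of all tested genes. The number of calls depended on single libraries, with 611 without mutant 1, 692 without mutant 2 and 1216 without control 2, against 1930 without control 1. A core of 447 genes (3.77%) was called in each of the 4 fits that left out one mutant or control library, 382 of them higher and 65 lower in mutant larvae. Genes of this core are called library-independent below. A fit without one library leaves a single library in its group and has less power. A lost call therefore need not mean that the library left out carried the change. Calls were spread over the large chromosome arms, from 13.1% of tested genes on X and 16.5% on 2L to 17.3% on 2R, 18.1% on 3L and 19.1% on 3R. The plot of change against level shows where 6 gene families lay in the whole distribution.

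**Figure D1:**
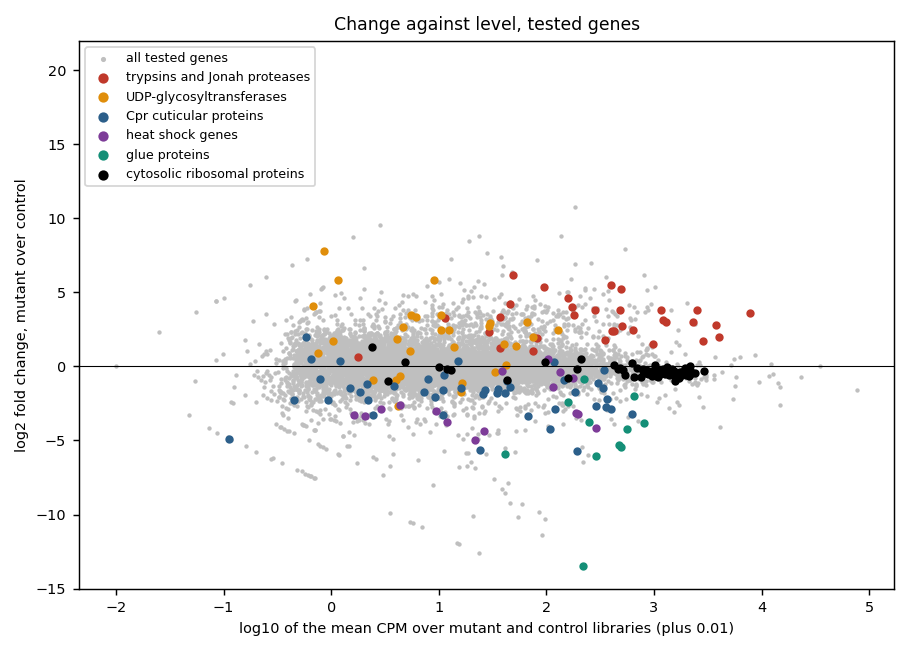
Log2 fold change, mutant over control, against the log10 of the mean level in CPM for all 11866 tested genes (grey) and 6 families (coloured). Trypsin and Jonah protease genes and most UDP-glycosyltransferase genes lie above 0, most glue, Cpr cuticle and heat shock genes lie below it, and ribosomal protein genes cluster just under 0 with a median of -0.35.

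The 32 trypsin and Jonah protease genes took 6.01 and 6.67% of the counts outside the mitochondrial genome in the mutant libraries, against 0.86 and 0.79% in the controls. Genes of larval, pupal and Cpr cuticle proteins took 2.40 and 1.93% in the mutants, against 8.60 and 6.41% in the controls. Sarcomere genes took 5.08 and 5.31% in the mutants, against 10.8 and 7.19% in the controls. The storage proteins of the blood, which make up a large part of larval fat body RNA, took 6.65 and 7.39% in the mutants, against 8.25 and 7.86% in the controls. Per gene length, and leaving out the mitochondrial genome, the highest mean level in mutant larvae was that of the protease gene Jon65Aiv at 15756 FPKM, followed by the serum protein gene Lsp1beta at 12749 and the cuticle gene Lcp4 at 11106. In control larvae the highest outside the mitochondrial genome were Lcp3 at 35290 FPKM, Lcp4 at 25083 and the odorant-binding protein gene Obp99b at 13611. The mitochondrial ribosomal RNA lrRNA lay above all of these, at 29483 FPKM in mutant and 88257 FPKM in control larvae.

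**Figure D2:**
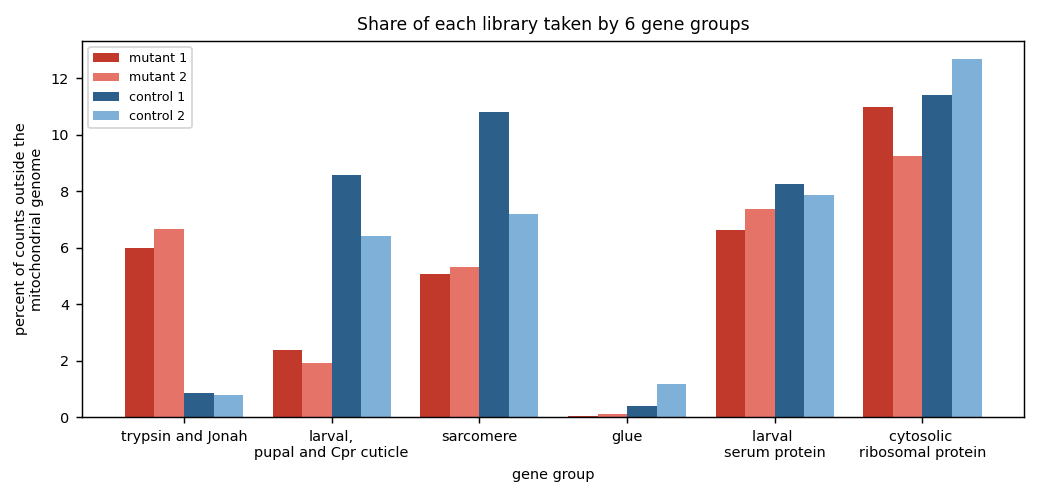
Share of the counts outside the mitochondrial genome, in percent, taken by 6 gene groups in each of the 4 libraries; each bar is 1 library. The protease bars are higher in both mutant libraries, the cuticle, sarcomere and glue bars are higher in both control libraries, and the serum protein bars lie close together.

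Genes were grouped in 71 lists by tissue, stage and function. The share of each list that was called is plotted beside the shares over all genes. Digestive enzyme lists had calls only higher in mutant larvae, and the lists of glue, larval, pupal and Cpr cuticle proteins only lower.

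**Figure D3:**
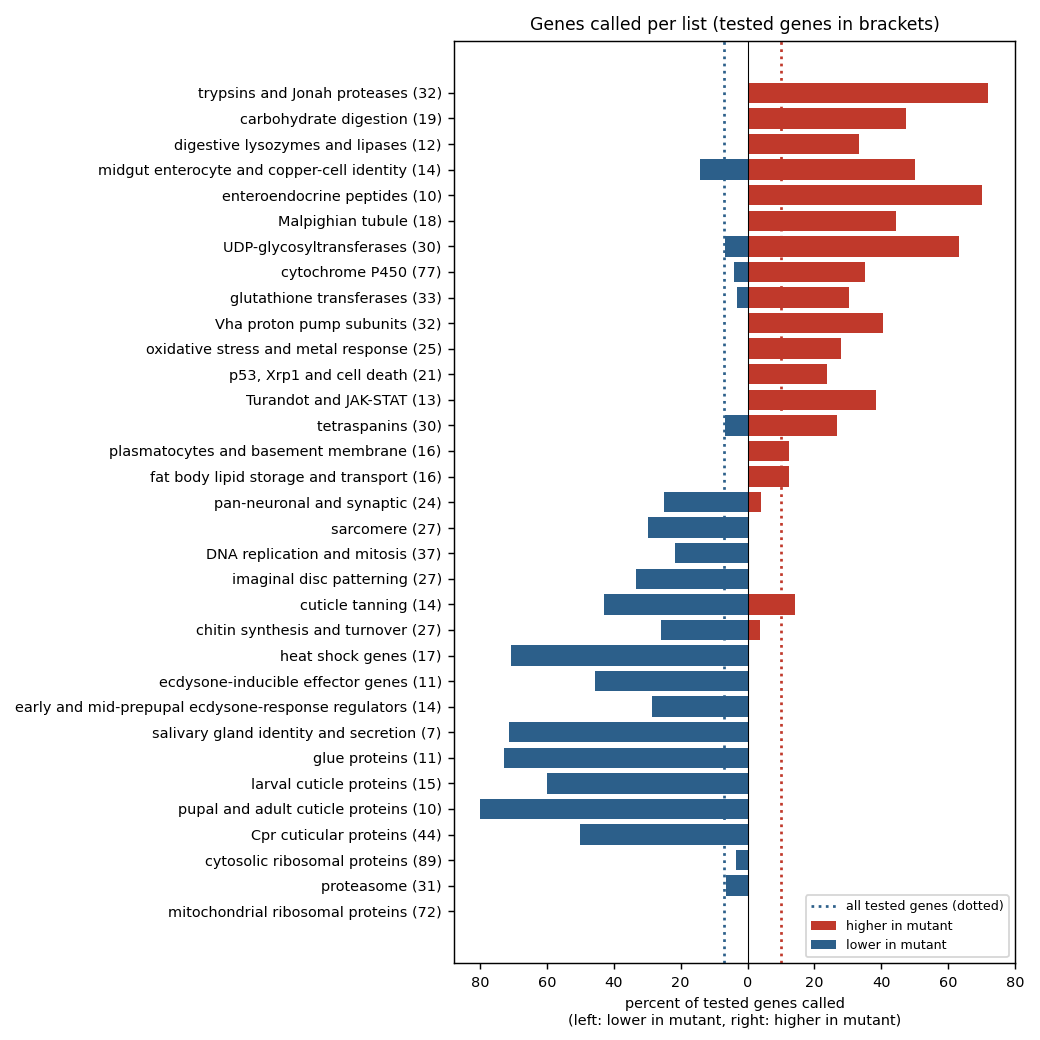
Percent of the tested genes of 33 lists that were called higher (right) or lower (left) in mutant larvae, with the number of tested genes in brackets and the shares over all genes as dotted lines (9.94% higher, 7.04% lower). Digestive, excretory and detoxification lists extend to the right, glue, cuticle, ecdysone and heat shock lists to the left, and the lists of ribosomal and proteasome proteins stay within the dotted lines.

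Digestive protease genes were the list with the largest gain in counts. Of 32 tested trypsin and Jonah genes 23 rose and 0 fell, and all 32 had a positive log2 change, with a median of 3.07. Calls numbered 14, 15, 20 and 17 without mutant 1, mutant 2, control 1 and control 2, and 14 genes were library-independent. Jon65Aiv (3L, 6039155 to 6040135) had 12549 and 16146 CPM in the mutant libraries, against 1040 and 1366 CPM in the controls. Its log2 fold change was 3.58 (SE 0.33, adjusted p = 0.00104), and the groups lay far apart. The trypsin gene alphaTry had 1018 and 917 CPM in the mutants, against 28.4 and 23.1 CPM in the controls (log2 5.23, SE 0.27, adjusted p = 0.000376). For betaTry, which lies beside it, the levels were 5567 and 3801 CPM in the mutants, against 494 and 182 CPM in the controls, and the call was lost without mutant 1 (log2 3.49). Several of these genes are near-identical neighbours that can share reads, so the sum is surer than its parts: the 32 genes together had 54497 and 60473 CPM in the mutants, against 9055 and 7441 CPM in the controls.

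Enzymes that break down starch and sugars rose as well. Of 19 tested carbohydrate-digestion genes 9 rose and 0 fell, with a median log2 change of 2.09, and 6, 7, 8 and 7 rose without mutant 1, mutant 2, control 1 and control 2. The maltase gene Mal-A1 had 78.5 and 75.7 CPM in the mutants, against 0.902 and 1.17 CPM in the controls (log2 6.19, SE 0.39, adjusted p = 0.00039). The alpha-mannosidase gene LManV had 263 and 355 CPM in the mutants, against 7.97 and 10.7 CPM in the controls (log2 5.05). Both were library-independent, and Mal-A1 had only 12 and 20 counts in the controls. Of 12 digestive lysozyme and lipase genes 4 rose, with 2, 2, 5 and 3 without the same libraries in turn. LysS, a lysozyme that larvae use to digest bacteria, had 1945 and 1431 CPM in the mutants, against 43.7 and 52.1 CPM in the controls (log2 5.14). The peritrophic matrix, a chitin and mucin sheet that lines the gut, was represented by 8 tested genes, of which 3 rose and 1 fell. Muc55B had 785 and 1358 CPM in the mutants, against 3.61 and 5.17 CPM in the controls. Peritrophin-A went the other way, with 80.3 and 87.4 CPM in the mutants, against 398 and 218 CPM in the controls (log2 -1.87), a call lost without mutant 1 (none of the list lower) or mutant 2 (1 lower, not this gene).

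Markers of the midgut cells themselves changed together with the secreted enzymes. Of 14 tested genes for midgut identity 7 rose and 2 fell, with 5, 3, 5 and 4 higher without mutant 1, mutant 2, control 1 and control 2. GATAe, the GATA factor that keeps endoderm identity, had 37.9 and 56.8 CPM in the mutants, against 3.16 and 5.34 CPM in the controls (log2 3.47, SE 0.36, adjusted p = 0.00153). The brush-border myosin gene Myo61F had 553 and 640 CPM in the mutants, against 76.7 and 84.2 CPM in the controls (log2 2.89), and the related Myo31DF rose by 1.67. All of these were library-independent. Copper cells are the acid-secreting cells of the middle midgut, and their homeotic gene lab had 3.63 and 9.43 CPM in the mutants, against 1.20 and 1.06 CPM in the controls (log2 2.53). That call was lost without mutant 2 or control 2. The genes that fell were Dl, the Notch ligand of intestinal stem cells and many other tissues (log2 -0.88), and pros, a transcription factor of endocrine cells and of the nervous system (log2 -1.31). Both calls were lost without either mutant library. The call on Dl was also lost without either control library, and that on pros without control 2. The part of midgut cell number in the enzyme results was not tested.

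Peptide hormones of the gut endocrine cells were also higher. Of 10 tested genes 7 rose and 0 fell, with a median log2 change of 1.41. Tk, the tachykinin gene, had 21.4 and 18.3 CPM in the mutants, against 3.61 and 3.23 CPM in the controls (log2 2.54, SE 0.27, adjusted p = 0.00162) and was the one library-independent gene. Dh31 had 16.9 and 14.3 CPM in the mutants, against 3.08 and 4.81 CPM in the controls (log2 1.97), with the call lost without mutant 1 (log2 1.86). Calls numbered 1, 3, 6 and 4 without mutant 1, mutant 2, control 1 and control 2. Several of these peptides are made by brain neurons as well, and which cells gave the rise was not tested.

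Genes of the Malpighian tubules, the insect's kidneys, were higher in part. Of 18 tested genes 8 rose and 0 fell, with a median log2 change of 0.87, and 4, 4, 8 and 9 rose without mutant 1, mutant 2, control 1 and control 2. The organic anion transporter gene Oatp58Dc had 62.0 and 93.6 CPM in the mutants, against 11.4 and 12.4 CPM in the controls (log2 2.71, SE 0.25, adjusted p = 0.00104). The inward-rectifier potassium channel gene Irk1 had 10.5 and 8.72 CPM in the mutants, against 1.95 and 1.94 CPM in the controls (log2 2.30). Both were library-independent, as was CG7589, listed by RefSeq as SecCl, a chloride channel gene (log2 2.70). Uro, the urate oxidase gene, had 245 and 214 CPM in the mutants, against 82.4 and 20.8 CPM in the controls, and here the control libraries differed from each other about as much as the groups did. Its call was lost without mutant 1 (log2 2.06) or mutant 2 (log2 2.25), and the log2 change was 3.48 without control 1 and 1.48 without control 2. The vacuolar proton pump, which powers both tubule secretion and midgut acidification, had 13 of 32 tested subunit genes higher and 0 lower. Calls numbered 3, 1, 9 and 2 without the same libraries in turn. Vha100-5 was the one library-independent gene, with 130 and 282 CPM in the mutants, against 22.5 and 23.7 CPM in the controls (log2 3.15).

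Detoxification enzymes rose in 3 families that act on foreign and endogenous compounds. Cytochrome P450 enzymes oxidise, and 27 of 77 tested Cyp genes rose while 3 fell, with 12, 16, 23 and 19 higher without mutant 1, mutant 2, control 1 and control 2. UDP-glycosyltransferases attach sugars, and 19 of 30 rose while 2 fell, with a median log2 change of 1.91 and 8, 9, 17 and 15 higher without the same libraries. Glutathione transferases attach glutathione, and 10 of 33 rose while 1 fell, with 3, 6, 6 and 4 higher. The glycosyltransferase gene CG5724 (Ugt37A2 in RefSeq) had 116 and 119 CPM in the mutants, against 16.2 and 12.6 CPM in the controls (log2 3.03, SE 0.21, adjusted p = 0.000402). CG15661 (Ugt49C1 in RefSeq) had 22.6 and 13.2 CPM in the mutants, against 0.376 and 0.235 CPM in the controls (log2 5.87). Replicates of both agreed within a group far more closely than the groups did. Cyp4ac3 had 57.8 and 51.5 CPM in the mutants, against 6.09 and 5.99 CPM in the controls (log2 3.18). GstD5 was close to absent in control larvae, with 62.2 and 49.4 CPM in the mutants, against 0.301 and 0.235 CPM in the controls. Its neighbours GstD2, GstD4 and GstD6 rose too, but mutant 1 carried most of the rise: GstD2 had 206 CPM in mutant 1 and 24.2 CPM in mutant 2, against 13.6 and 10.2 CPM in the controls.

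Genes for handling oxidants and metals were higher in part. Of 25 tested genes 7 rose and 0 fell, with 3, 3, 6 and 3 higher without mutant 1, mutant 2, control 1 and control 2. Gclc, the catalytic subunit of the enzyme that limits glutathione synthesis, had 138 and 161 CPM in the mutants, against 37.5 and 26.5 CPM in the controls (log2 2.22, SE 0.24, adjusted p = 0.0019). MTF-1, the transcription factor that senses heavy metals, had 61.9 and 74.2 CPM in the mutants, against 23.2 and 22.7 CPM in the controls (log2 1.57). Both were library-independent. The ferritin gene Fer2LCH, which stores iron, had 933 and 1367 CPM in the mutants, against 446 and 368 CPM in the controls, a call lost without mutant 2 (log2 1.20) or control 2 (log2 1.37). MtnE, a metallothionein gene, Tsf1, a transferrin gene, and Fer1HCH, the other ferritin chain, also rose, each with a call that was lost without mutant 1, mutant 2 or control 2.

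Tetraspanins, membrane proteins that organise other proteins at cell contacts, split sharply within the family. Of 30 tested genes 8 rose and 2 fell, the median log2 change was -0.02, and all 8 that rose were library-independent. Tsp2A, needed for the smooth septate junctions that seal the midgut, had 108 and 103 CPM in the mutants, against 18.5 and 23.3 CPM in the controls (log2 2.33, SE 0.20, adjusted p = 0.000806). Tsp42Ec had 172 and 166 CPM in the mutants, against 17.6 and 9.16 CPM in the controls (log2 3.66). Within the same cluster on 2R, Tsp42Ep went the other way, with 14.4 and 20.4 CPM in the mutants, against 52.6 and 164 CPM in the controls (log2 -2.64), a call lost without either mutant library, where 0 tetraspanin genes were called lower.

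The salivary glands showed the opposite picture. Of 11 tested glue genes 8 fell and 0 rose, with a median log2 change of -4.20, and 2, 8, 9 and 2 fell without mutant 1, mutant 2, control 1 and control 2. Sgs1, which encodes a large secreted glue protein, had 0 and 1 counts in the mutant libraries, against 4346 and 9219 counts in the controls. The control to mutant ratio of the summed counts was 14881, with an exact counting interval of 2670 to 587820. Sgs1 was the one glue gene called whichever library was left out. The other glue genes were uneven within both groups. Sgs7 had 2.36 CPM in mutant 1 and 42.5 CPM in mutant 2, against 385 CPM in control 1 and 1536 CPM in control 2. Sgs8, which lies beside it, had 0.242 and 17.0 CPM in the mutants, against 329 and 821 CPM in the controls, and its call was lost without control 2 (log2 -5.26). In both groups the library numbered 2 had the higher glue levels. The lowest control stayed above the highest mutant for the glue genes called. Such a lack of overlap held for every called gene and for 60.9% of all tested genes.

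Regulators of the gland fell by smaller amounts. Of 7 tested genes for salivary gland identity and secretion 5 fell and 0 rose, with 2, 5, 5 and 3 without mutant 1, mutant 2, control 1 and control 2. sage, a transcription factor gene restricted to this gland, had 3.21 and 7.34 CPM in the mutants, against 30.3 and 43.0 CPM in the controls (log2 -2.80, SE 0.39, adjusted p = 0.00524). The sulfotransferase gene pip had 9.86 and 10.3 CPM in the mutants, against 31.0 and 31.1 CPM in the controls (log2 -1.62). Both were library-independent. The list median was -1.53, and all 7 genes had a negative change.

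Ecdysone-response genes were lower where they passed the test. Of 14 early and mid-prepupal regulators 4 fell and 0 rose, with 1, 3, 7 and 2 without mutant 1, mutant 2, control 1 and control 2. br, the Broad-Complex gene that commits tissues to metamorphosis, had 74.1 and 139 CPM in the mutants, against 424 and 584 CPM in the controls (log2 -2.24, SE 0.35, adjusted p = 0.0078), and was library-independent. Cyp18a1, which inactivates ecdysteroids, had 13.7 and 17.3 CPM in the mutants, against 40.2 and 35.1 CPM in the controls (log2 -1.28), a call lost without mutant 1 (log2 -1.12). Of 11 effector genes that ecdysone induces 5 fell, none in the fits without mutant 1 or without mutant 2 and 4 without either control. Fbp1, a receptor gene for serum proteins in the fat body, had 501 and 398 CPM in the mutants, against 2271 CPM in control 1 and 13225 CPM in control 2. Its log2 change was -4.11, or -2.33 without control 2, and the call was lost without either mutant library (log2 -4.27 and -3.95).

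Hormone genes upstream were called in both directions, beside 9.94% higher and 7.04% lower over all tested genes. Of 15 genes listed for ecdysteroid synthesis and the prothoracic gland 1 rose and 2 fell, mld and spok. The gene that rose encodes a disc hormone placed on this list, so no ecdysteroid synthesis gene was called higher. The levels of mld were 18.6 and 24.2 CPM in the mutants, against 49.8 and 45.0 CPM in the controls. Its log2 change was -1.15, or -0.96 without mutant 1, where the call was lost. The gene that rose was Ilp8, a relaxin-like hormone that damaged or slow-growing discs release to delay metamorphosis, with 9.13 and 23.2 CPM in the mutants, against 1.13 and 0.705 CPM in the controls (log2 4.15, SE 0.72, adjusted p = 0.0111). Its call was lost without mutant 2 (log2 3.32), and its reads can overlap those of a neighbouring gene. spok, which acts in ecdysone synthesis, had 3.27 and 3.22 CPM in the mutants, against 5.49 and 10.2 CPM in the controls (log2 -1.28, or -0.76 without control 2, where the call was lost, as it was without mutant 1 at -1.28 or mutant 2 at -1.27). Of 13 juvenile hormone genes 3 rose and 0 fell, with 2 in each fit that left out one library. JhI-26, a gene induced by juvenile hormone, had 32.7 and 31.9 CPM in the mutants, against 7.82 and 6.81 CPM in the controls (log2 2.14), and Jheh3, an epoxide hydrolase that degrades the hormone, had 249 and 273 CPM in the mutants, against 103 and 112 CPM in the controls (log2 1.28). Both were library-independent.

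Cuticle protein genes were lower in larval, pupal and Cpr families. Of 15 tested larval cuticle genes 9 fell and 0 rose, with a median log2 change of -2.76, and 2, 2, 6 and 9 fell without mutant 1, mutant 2, control 1 and control 2. Lcp2 had 829 and 648 CPM in the mutants, against 6312 and 3697 CPM in the controls (log2 -2.76, SE 0.36, adjusted p = 0.00405), and Lcp1 had 2025 and 1827 CPM in the mutants, against 9889 and 8005 CPM in the controls (log2 -2.22). Those 2 were library-independent. Of 10 pupal and adult cuticle genes 8 fell, with 0, 0, 7 and 7 without the same libraries in turn. Ccp84Aa had 0.181 and 0.358 CPM in the mutants, against 50.4 CPM in control 1 and 10.8 CPM in control 2 (log2 -6.78), and the call was lost without mutant 1 (log2 -6.38) or mutant 2 (log2 -7.34). Of 44 tested Cpr genes, which carry the Rebers and Riddiford chitin-binding motif, 22 fell and 0 rose, with 4, 6, 18 and 18 without those libraries. Cpr97Ea had 1.63 and 2.51 CPM in the mutants, against 25.6 and 14.5 CPM in the controls (log2 -3.27), and Cpr11B had 17.4 and 19.4 CPM in the mutants, against 52.3 and 53.8 CPM in the controls (log2 -1.53). The median log2 difference between control 1 and control 2 was 0.77 over larval and 1.66 over pupal and adult cuticle genes, opposite in sign to the -1.48 of the glue genes.

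Enzymes that build, remodel and harden cuticle changed with the structural proteins, with exceptions. Of 27 chitin genes 7 fell and 1 rose, with 2, 2, 6 and 9 lower without mutant 1, mutant 2, control 1 and control 2. Cht10, a chitinase gene needed for moulting, had 13.2 and 26.9 CPM in the mutants, against 146 and 200 CPM in the controls (log2 -3.11, SE 0.37, adjusted p = 0.00275), and was library-independent. CS-2, the chitin synthase gene of the gut, rose, with 24.6 and 31.5 CPM in the mutants, against 11.6 and 13.6 CPM in the controls (log2 1.15). That call was lost without mutant 2 or control 1. Of 14 tanning and pigment genes 6 fell and 2 rose, with 2, 2, 7 and 3 lower without the same libraries. Pu, whose enzyme makes the pterin cofactor of tyrosine hydroxylase, had 17.1 and 15.4 CPM in the mutants, against 99.1 and 156 CPM in the controls (log2 -2.97, SE 0.27, adjusted p = 0.00104). ple, the tyrosine hydroxylase gene, had 7.38 and 7.70 CPM in the mutants, against 77.6 CPM in control 1 and 888 CPM in control 2, and its log2 change of -6.00 was -3.36 without control 2. The call on ple was lost without mutant 1 (log2 -5.96) or mutant 2 (log2 -6.03). The gene t, which encodes the hydrolase that releases dopamine from its beta-alanine conjugate, rose, with 24.8 and 25.3 CPM in the mutants, against 6.01 and 3.99 CPM in the controls (log2 2.33).

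**Figure D4:**
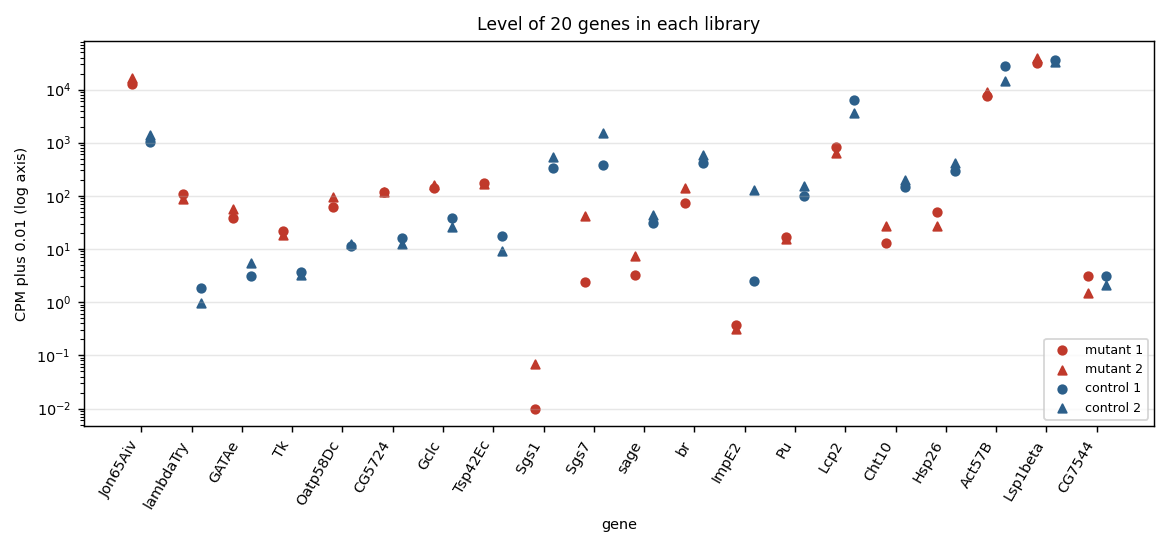
Level of 20 genes in each library in CPM plus 0.01 on a log axis, with mutant libraries (red) left of control libraries (blue) and library 1 as circles, library 2 as triangles. Gut, tubule and detoxification genes on the left are higher in both mutant libraries, salivary, ecdysone, cuticle and heat shock genes are higher in both controls, and Lsp1beta and CG7544 overlap.

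Heat shock genes were lower, and calls on other stress lists are read beside 9.94% higher and 7.04% lower over all tested genes. Of 17 tested heat shock genes 12 fell and 0 rose, with a median log2 change of -3.01, and 4, 4, 12 and 7 fell without mutant 1, mutant 2, control 1 and control 2. Hsp26, a small chaperone gene that ecdysone also induces, had 49.1 and 27.3 CPM in the mutants, against 290 and 418 CPM in the controls (log2 -3.21, SE 0.37, adjusted p = 0.00235). The stress-inducible Hsp70Bb had 3.57 and 1.19 CPM in the mutants, against 45.8 and 54.4 CPM in the controls (log2 -4.39). The Hsp70 copies are near-identical and their reads may be split among them, and 6 copies were called, all of them lower. Of 13 Turandot and JAK-STAT genes 5 rose and 0 fell, with 0, 1, 3 and 3 without the same libraries. The cytokine gene upd3 had 3.57 and 3.76 CPM in the mutants, against 1.05 and 0.528 CPM in the controls (log2 2.23), with the call lost without mutant 1 (2.27), mutant 2 (2.19) or control 2 (1.79). Of 21 p53, Xrp1 and cell death genes 5 rose and 0 fell, with 1, 2, 3 and 4 higher. Ku80, a DNA end-joining gene, had 43.9 and 30.3 CPM in the mutants, against 12.7 and 8.57 CPM in the controls (log2 1.81), and its call was lost without mutant 1 (log2 1.52). Of 11 JNK pathway genes 0 were called by edgeR or DESeq2, with 2 at an unadjusted p under 0.05, and 1 of 25 Toll and Imd genes was lower.

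Fat body and blood cell lists gave small numbers of calls, to be read beside the 9.94% higher and 7.04% lower over all tested genes. Lsp1beta, the most abundant storage protein gene, had 31866 and 38760 CPM in the mutants, against 36709 and 32795 CPM in the controls (log2 0.02, SE 0.30, adjusted p = 0.965), so its groups overlapped. Lsp2 alone of the 4 serum protein genes fell, with 328 and 503 CPM in the mutants, against 1394 and 2232 CPM in the controls (log2 -2.13, or -1.84 without mutant 1, where the call was lost). Of 16 lipid storage and transport genes 2 rose, and both were library-independent. These were Desat1, a fatty acid desaturase gene, with 2291 and 2587 CPM in the mutants, against 873 and 654 CPM in the controls (log2 1.68), and the lipophorin receptor gene LpR1, with 47.2 and 59.9 CPM in the mutants, against 19.8 and 23.7 CPM in the controls. Of 16 plasmatocyte and basement membrane genes 2 rose and 0 fell, among them crq, a scavenger receptor gene of phagocytes, with 111 CPM in both mutants, against 42.2 and 50.6 CPM in the controls (log2 1.26).

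In muscle, nervous system, imaginal disc and cell division lists no called gene was library-independent. The log2 changes of the genes named kept their sign. Leaving out a library could hardly change that sign, since the groups of these genes did not overlap. All 27 sarcomere genes had a negative log2 change, with a median of -0.77, and 8 were called lower, but 0 were called without mutant 1, without mutant 2 or without control 1, against 9 without control 2. Act57B, a larval muscle actin gene, had 7719 and 8859 CPM in the mutants, against 27721 CPM in control 1 and 14743 CPM in control 2 (log2 -1.36, or -0.82 without control 1, -1.26 without mutant 1 and -1.46 without mutant 2). Control 1 lay above control 2 by a median of 0.67 over this list. Of 24 neuronal genes 6 fell and 1 rose, with 0, 6, 4 and 2 lower without mutant 1, mutant 2, control 1 and control 2. The vesicle gene nSyb had 12 and 16.5 CPM in the mutants, against 34.4 and 31.9 CPM in the controls (log2 -1.22), a call lost without mutant 1. Of 27 disc patterning genes 9 fell and 0 rose, with 1, 2, 11 and 5 lower. Dll, the limb gene, had 6.47 and 5.19 CPM in the mutants, against 19.0 and 34.8 CPM in the controls (log2 -2.21, or -2.06 without mutant 2, where the call was lost). Of 37 replication and mitosis genes 8 fell and 0 rose, with 1, 0, 9 and 1 lower, and PCNA, the sliding clamp of DNA polymerase, had 34.4 and 28.2 CPM in the mutants, against 60.3 and 64.2 CPM in the controls (log2 -0.99, or -0.85 without mutant 2, where the call was lost).

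Ribosomal protein, ribosome biogenesis, proteasome and respiratory chain genes gave few calls by edgeR, which called 9.94% of all tested genes higher and 7.04% lower. DESeq2 gave more calls, and called 11.3% of all its genes higher and 10.4% lower. Of 89 cytosolic ribosomal protein genes 3 fell and 0 rose, although 81 had a negative log2 change (median -0.35), and DESeq2 called 21 lower and 1 higher. All 31 proteasome genes had a negative change (median -0.52) while 2 were called, 7 were called without control 1, and DESeq2 called 8 lower. The median log2 difference between control 1 and control 2 was -0.47 over the proteasome genes. Of 72 mitochondrial ribosomal protein genes 0 were called by edgeR, with 11 at an unadjusted p under 0.05, and DESeq2 called 4 lower. Of 26 ribosome biogenesis genes 0 were called by edgeR, with 7 at an unadjusted p under 0.05, and DESeq2 called 1 higher and 5 lower. Of 82 nuclear-encoded respiratory chain genes 3 fell and 1 rose (median -0.27), and DESeq2 called 14 lower and 2 higher. Of 21 glycolysis and sugar storage genes 2 fell and 2 rose by edgeR (median -0.60), near the shares over all tested genes. DESeq2 called 9 of this list lower and 2 higher. The mitochondrial large ribosomal RNA, listed as lrRNA, had 45162 and 33687 CPM in the mutants, against 141809 and 90329 CPM in the controls (log2 -1.56, SE 0.35, adjusted p = 0.0259), a call lost without mutant 1 (log2 -1.78) or mutant 2 (log2 -1.36). It was the one call among 15 tested genes of the mitochondrial genome, of which 13 had a positive change, and the mitochondrial genome took 8.44 and 5.98% of all counts in the mutants, against 13.7 and 10.2% in the controls.

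Germline and sex-linked lists gave small numbers of calls, beside 9.94% higher and 7.04% lower over all tested genes. Of 26 male germline genes 2 rose and 1 fell, and 0 of 3 tested Y-linked genes were called by edgeR or DESeq2, with 0 at an unadjusted p under 0.05. The testis tubulin gene betaTub85D had 63.0 and 72.1 CPM in the mutants, against 41.9 and 28.6 CPM in the controls (log2 0.94, or 0.69 without control 2, 1.04 without mutant 1 and 0.84 without mutant 2, where the call was lost). Of 15 dosage compensation and sex determination genes 2 rose and 1 fell. Those that rose were Yp2 (log2 3.36, adjusted p = 0.0189) and msl-2 (log2 0.78, adjusted p = 0.0387). Yp3 fell (log2 -2.28, adjusted p = 0.0407). These called genes were not library-independent. On the same list roX1, the dosage compensation RNA of males, had 221 and 196 CPM in the mutants, against 152 and 69.6 CPM in the controls. The change in roX1 did not pass the test (log2 0.91, adjusted p = 0.116). A difference in the sex ratio of the pools is not given by the labels and was not tested.

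Lists around METTL16 gave 1 call among m6A genes and 5 among splicing genes. Of 10 m6A genes 1 fell, CG6422 (Ythdf in RefSeq), an m6A reader gene, with 22.1 and 20.8 CPM in the mutants, against 45.0 and 67.9 CPM in the controls (log2 -1.40, SE 0.24, adjusted p = 0.0113). Without mutant 1 (-1.44) or mutant 2 (-1.36) the call was lost. Of 19 genes of S-adenosylmethionine, methionine and polyamine metabolism 1 rose and 2 fell. As with the m6A genes, these counts lay near the shares over all tested genes, 9.94% higher and 7.04% lower. Sam-S, the S-adenosylmethionine synthetase gene, had 675 and 474 CPM in the mutants, against 272 and 249 CPM in the controls (log2 1.14, SE 0.25, adjusted p = 0.0234), with the call lost without mutant 1 (0.87) or control 2 (1.08). Of 23 spliceosome and U6 particle genes 5 fell and 0 rose, against 7.04% of all tested genes lower, with 1 lower without mutant 1 or without control 1 and 0 without mutant 2 or without control 2. The splicing factor gene B52 had 162 and 175 CPM in the mutants, against 318 and 329 CPM in the controls (log2 -0.94, with calls lost without mutant 1, mutant 2 or control 2 at -0.88, -0.99 and -0.91).

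Most calls lay outside the lists, with 362 of the 2015 on a list and 998 in genes known only by a CG number. CG15784 on X, among the 12 genes with the largest gain in CPM, had 3580 and 4113 CPM in the mutants, against 199 and 195 CPM in the controls (log2 4.28, adjusted p = 0.00039). Arc1, also among those 12, is a gene of retroelement origin whose protein forms capsids, and had 4944 and 3502 CPM in the mutants, against 595 and 549 CPM in the controls (log2 2.88). Bace, an aspartic protease gene that overlaps a neighbour, had 306 and 241 CPM in the mutants, against 0.752 and 0.470 CPM in the controls. In the other direction, CG2016 (Jhbp2 in RefSeq) had 2.90 and 2.21 CPM in the mutants, against 22.5 and 27.0 CPM in the controls (log2 -3.27). CG42586 had 90.6 and 104 CPM in the mutants, against 651 and 657 CPM in the controls (log2 -2.75). Replicates of these genes agreed closely, and no library decided their calls.

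A few genes were present in one group and absent from the other, taken as at most 3 counts in each library of one group and at least 50 in each of the other. In 6 genes the counts were in the mutants, and in 4 they were in the controls, Sgs1 among them. This rule already set the libraries of the groups apart, so the ratios, intervals and calls of these genes are no separate support. CG7248 had 581 and 981 counts in the mutants, against 1 and 2 counts in the controls, a ratio of 475 with an exact counting interval of 162 to 2304. CG11384 had 92 and 98 counts in the mutants, against 0 in both controls, at least 57.7-fold higher when the control group is set to 3 counts in all. CG31698 went the other way, with 0 counts in both mutants, against 259 and 662 counts in the controls, at least 337-fold lower in the mutants on the same basis. CG7248, CG11384, CG31698 and Sgs1 were called in all 4 fits without one library, and CG43248, with 0 counts in both mutants, against 156 and 168 in the controls, lost its call without mutant 1 or mutant 2.

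Of 77 tested loci with no gene name in the table, 22 were called (28.6%), 11 in each direction, against 17.0% of protein-coding genes. The largest decrease among them was on 2R, from 5049213 to 5056688, with 4 and 2 counts in the mutants, against 2384 and 2757 counts in the controls (log2 -9.83, SE 0.52, adjusted p = 0.000376). Of 9 called loci on 2R, 7 were lower. Of these, 5 lay within 3482524 to 3817723 on 2R, a stretch chosen after these values were seen, in which no annotated gene passed the filter and where some of the loci overlap each other. The locus from 3482524 to 3483486 had 7 counts in each mutant library, against 317 and 344 counts in the controls. The locus from 3762196 to 3797522 had 26 and 23 counts in the mutants, against 624 and 731 counts in the controls. Increases were found as well, as on 2L from 2293844 to 2299116, with 1753 and 741 counts in the mutants, against 9 and 4 counts in the controls (log2 7.41). All 4 loci given by position were library-independent. The second chromosome of the controls was in part the balancer, and its part in these differences cannot be told apart from that of the mutation.

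The difference between the control libraries was set beside the change of each list. Some lists with large median changes had small control differences, with a median change of 2.09 and a control difference of -0.15 for carbohydrate digestion, 1.91 and -0.02 for glycosyltransferases, and 1.41 and -0.02 for enteroendocrine peptides. The glue and the pupal cuticle lists had large values on both scales, with control 2 above control 1 for glue and below it for cuticle.

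**Figure D5:**
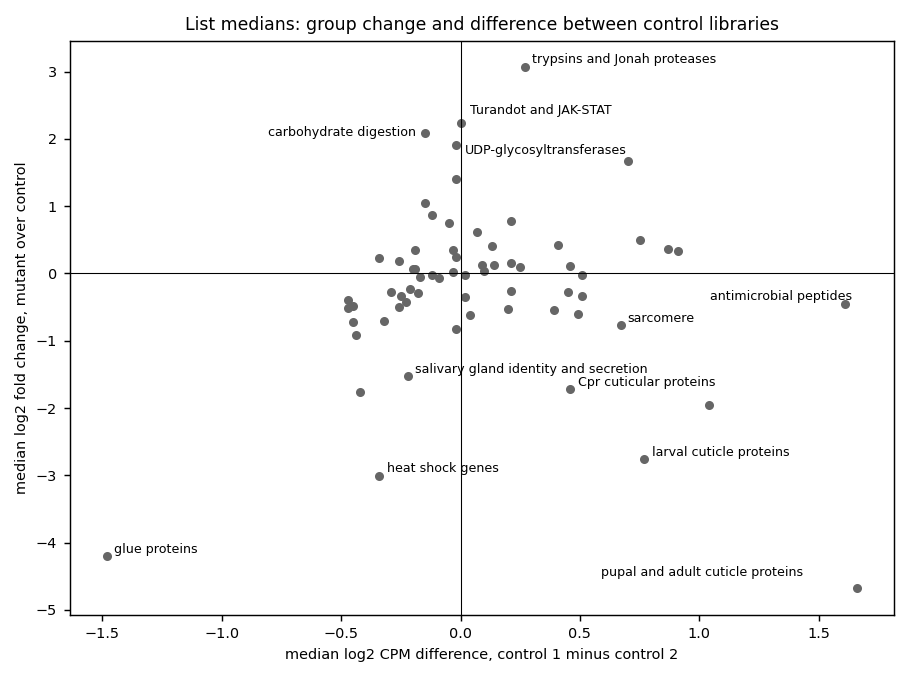
Median log2 fold change, mutant over control, against the median log2 CPM difference between control 1 and control 2, 1 point for each list with at least 7 tested genes. Trypsin and Jonah genes lie at 3.07 and 0.27, while glue genes at -4.20 and -1.48 and pupal cuticle genes at -4.68 and 1.66 lie at opposite ends of the axis of control differences.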

How the data were processed

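Polyadenylated RNA of whole larvae was sequenced in 2 mutant, 2 control and 2 further libraries. The read counts per gene were deposited by the authors as whole numbers, without normalization. The FPKM values were deposited by the authors and are proportional to those counts over gene length, with a library-specific denominator other than the count total; they serve here only to compare levels between genes. For aligner, counter, strand setting and genome build, the entry is "not given in the sources used here". Among the 17908 genes, 17669 IDs matched a RefSeq Release 6 table and 99.5% of those had the same start, so positions are those of the table itself. Antisense and overlapping genes may share reads.

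Counts of all 6 libraries in 3 groups were filtered with filterByExpr (minimum count 10), scaled by TMM and fitted with edgeR 4.0.16 in R 4.3.3 by its quasi-likelihood test, mutant against control, with Benjamini-Hochberg adjustment over 11866 genes and a threshold of 0.05. The fit had 3 residual degrees of freedom and a biological coefficient of variation of 0.269. Log2 fold changes are mutant over control, the standard error is the fold change over the square root of F, and CPM uses TMM-scaled libraries. Counting intervals are exact at 95% and cover counting error only. DESeq2 1.42.0, RLE scaling, other filters and thresholds, a replicate block and leaving out each library were the alternatives.

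The comparison and the 71 gene lists were chosen with earlier results of these data known. Genes named are the 12 called genes with the largest gain and the 12 with the largest loss in CPM, up to 3 called genes of lowest p per list and direction, genes present in one group and absent from the other, genes uneven within a group, library-independent genes of lowest p, and CG7544 and U6. Outside these rules, CG7589, Fer1HCH, GstD2, GstD4, GstD6, ImpE2, MtnE, Obp99b, Tsf1, lab and roX1 were chosen after their values were seen.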

Additional observations from a re-analysis of the deposited data

How the results depend on the processing

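The 2015 calls, 1180 higher and 835 lower, came to 1975 with RLE scaling and to 1697 with the mutant and control libraries alone. DESeq2 called 2747 genes, 1435 higher and 1312 lower. At an adjusted p under 0.01 edgeR called 574 genes, 441 higher and 133 lower. Leaving out one library in turn gave 611 to 1930 calls, 475 to 1042 higher and 136 to 888 lower. With the replicate block 1831 genes were called, 1066 higher and 765 lower. The labels give no meaning to the shared numbers. The deviations of same-numbered libraries correlated at 0.0444 over all tested genes, a value that does not describe single gene groups. Median log2 differences of library 1 minus library 2 were -1.48 in controls and -2.93 in mutants for glue genes. They were 0.67 and -0.07 for sarcomere genes. Whether same-numbered libraries shared a batch was not tested. Of 237 named gene results, 0 called genes changed direction under these alternatives, while 7 that were not called did, CG7544 and Lsp1beta among them. The groups of every called gene did not overlap, so these alternatives could hardly reverse its direction. The kept direction is therefore no separate support for the calls. Medians of 20 lists changed sign, each of them at most 0.49 in size. Of the named genes, 127 lost their call without mutant 1, 121 without mutant 2, 51 without control 1, 73 without control 2 and 18 with the replicate block. The cause was not tested. With 2 libraries per group the precision of each value is limited.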
